A study of Mus musculus with 6 samples.

Results

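Branched-chain amino acid (BCAA) catabolism was examined in mouse heart through 10 genes, 9 that encode enzymes or enzyme regulators of the pathway and the transcription factor gene Klf15. The genes were taken from a fixed list by symbol, and all 10 were found among the 23808 genes of the table. Levels are in FPKM, a fragment number corrected for gene length and for the size of the library, so that genes can be compared per length. The hearts were those of wild-type (WT) female mice on high-fat food (HFD) or on normal chow (NC), given from week 4 to week 12 of life. There were 3 mRNA-seq libraries per diet, numbered 1 to 3, and the comparison asked which transcripts differ between the diets. Strain, diet composition and the sampled region of the heart are not stated in the labels. Nor do they state that each library is another mouse, and p-values here therefore reflect only library-to-library spread, which may be technical.

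Leucine, isoleucine and valine are first transaminated by the mitochondrial aminotransferase BCAT2 to branched-chain ketoacids, and the branched-chain ketoacid dehydrogenase (BCKDH) then commits the carbon to oxidation in the mitochondrial matrix. The complex consists of the E1 decarboxylase with its alpha and beta subunits (Bckdha, Bckdhb), the E2 transacylase core (Dbt) and the shared E3 subunit (Dld). The kinase encoded by Bckdk phosphorylates E1 alpha and inhibits the complex, and the phosphatase encoded by Ppm1k removes that phosphate and activates it. Further on, IVD acts in the leucine branch and HIBCH and HIBADH in the valine branch. KLF15, a Krüppel-like zinc finger factor that responds to glucocorticoids and to the circadian clock, is known as an activator of BCAA genes in heart and skeletal muscle.

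Sequence upstream of 2 of the genes is shown because KLF15 is the regulator among the members and Bcat2 encodes the first enzyme of the route it is known to control. RefSeq start sites were matched for 9 of the 10 members, with 11 windows of 250 bases upstream of a start in all (build GRCm38.p6). The Klf15 window lies at chr6:90462326-90462575 on the plus strand and the first Bcat2 window at chr7:45569903-45570152 on the plus strand. Capitals in Klf15 mark the motif CACGTG, the E-box letters recognised by CLOCK and BMAL1. Capitals in Bcat2 mark the motif CACCC, the core of the KLF recognition element, read here on the other strand.
Klf15: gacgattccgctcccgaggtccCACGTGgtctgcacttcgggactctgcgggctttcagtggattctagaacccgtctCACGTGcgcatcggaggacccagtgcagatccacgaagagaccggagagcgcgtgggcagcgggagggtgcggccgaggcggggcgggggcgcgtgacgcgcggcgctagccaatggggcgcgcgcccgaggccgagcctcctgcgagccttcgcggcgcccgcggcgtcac
Bcat2: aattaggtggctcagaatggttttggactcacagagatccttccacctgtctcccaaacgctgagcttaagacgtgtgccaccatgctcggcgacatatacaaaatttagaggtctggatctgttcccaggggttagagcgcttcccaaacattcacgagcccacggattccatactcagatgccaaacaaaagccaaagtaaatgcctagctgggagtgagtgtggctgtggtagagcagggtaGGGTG
Both strands were searched, and no CACCC site overlapped a CACGTG site in either printed window. CACGTG occurred 2 times in the Klf15 window and in 1 of the 11 member windows. Among 32851 windows of the same length it occurred at least once in 6.02% and 2 or more times in 0.429%. CACCC occurred once in the printed Bcat2 window and once in the Klf15 window. In the window of the second Bcat2 start (chr7:45571029-45571278) CACCC occurred 0 times. It occurred in 6 of the 11 member windows (54.5%) and in 52.0% of all windows, shares that are close to each other. These matches describe letters and show no binding.

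By GENCODE annotation of mm10, all 10 are protein-coding genes. Bcat2 (ENSMUSG00000030826) lies on chromosome 7 from 45570153 to 45589711, Bckdha on chromosome 7 from 25629946 to 25658981, Bckdhb on chromosome 9 from 83925145 to 84124240 and Dbt on chromosome 3 from 116513070 to 116549981. Bckdk lies on chromosome 7 from 127904082 to 127910221, Ppm1k on chromosome 6 from 57506502 to 57535468 and Ivd on chromosome 2 from 118861954 to 118882909. Hibch lies on chromosome 1 from 52844929 to 52920986, Hibadh on chromosome 6 from 52546228 to 52640389 and Klf15 (ENSMUSG00000030087) on chromosome 6 from 90462576 to 90475238. Exons of Bcat2 overlap 0610005C13Rik, and exons of Bckdha overlap B3gnt8, each on the opposite strand, and exons of Hibadh overlap Gm24355 on the same strand. Strand use in the counting is not stated, so fragments may be shared within these pairs.

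A few features of the libraries bear on all values that follow. The summed FPKM lay between 687877 and 739406 in 5 libraries and was 576334 in HFD 1, which was listed at 0 for 6 genes that exceeded 1000 FPKM in another library. Scaling all libraries to an equal sum without mitochondrially encoded genes moved no member by more than a rounding step (Bckdhb −0.05 in place of −0.04 on the log2 scale). That sum also left out the genes listed at 0 in a library and above 1000 FPKM in another. Cardiomyocyte markers were abundant in every library (8 of 8 genes, summed FPKM 24521 to 36350), as the tissue label implies. Atrial markers (344 to 13770 FPKM summed over 5 genes), erythroid genes (1238 to 13343 over 4 genes) and white adipocyte markers (1.04 to 67.3 over 6 genes) varied widely within each diet. Between the diets, macrophage markers (5 of 5 lower on HFD, median log2 difference −0.58), fibroblast markers (5 of 6 lower, −0.56) and smooth muscle and pericyte markers (4 of 5 lower, −0.42) had negative differences. Cardiomyocyte markers were lower in 7 of 8 (median −0.23), white adipocyte markers in 5 of 5 tested (−0.57) and atrial markers in 4 of 5 (−0.15). Of all tested genes 53.1% were lower. At an unadjusted p of 0.05 in limma, 3 macrophage, 3 fibroblast, 2 smooth muscle and pericyte and 1 cardiomyocyte genes passed (3.62% of all tested genes). After adjustment 0 passed. Endothelial markers were higher in 5 of 5 (median 0.18) and erythroid genes in 4 of 4 (0.10). The part of all these cell types in the members' values was not tested. In whole tissue, fewer cells of a type and less RNA per cell cannot be told apart.

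No difference between the diets passed the test in any member. With limma and Benjamini-Hochberg adjustment the adjusted p was 0.9998 for each of the 10 genes, and 0 of 11456 tested genes (0%) passed 0.05. At an unadjusted p of 0.05, 0 of the 10 members passed, against 415 tested genes (3.62%). The diets were without overlap in 0 of the 10 members, against 931 tested genes (8.13%). On the log2(FPKM + 1) scale 4 members had a positive and 6 a negative difference, HFD minus NC, with a median of −0.09 (−0.02 over all tested genes) and a range from −0.33 to 0.27. All 95% intervals included 0. Their outermost bounds were 0.85, the upper bound of Klf15, and −0.82, the lower bound of Bcat2. For each gene, changes within its own interval are inside what these libraries leave possible. Other intervals were narrower, such as −0.55 to 0.29 for Bckdha. The median was 7.0e-03 after quantile normalization, where 5 members were positive (51.6% of tested genes).

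**Figure D1:**
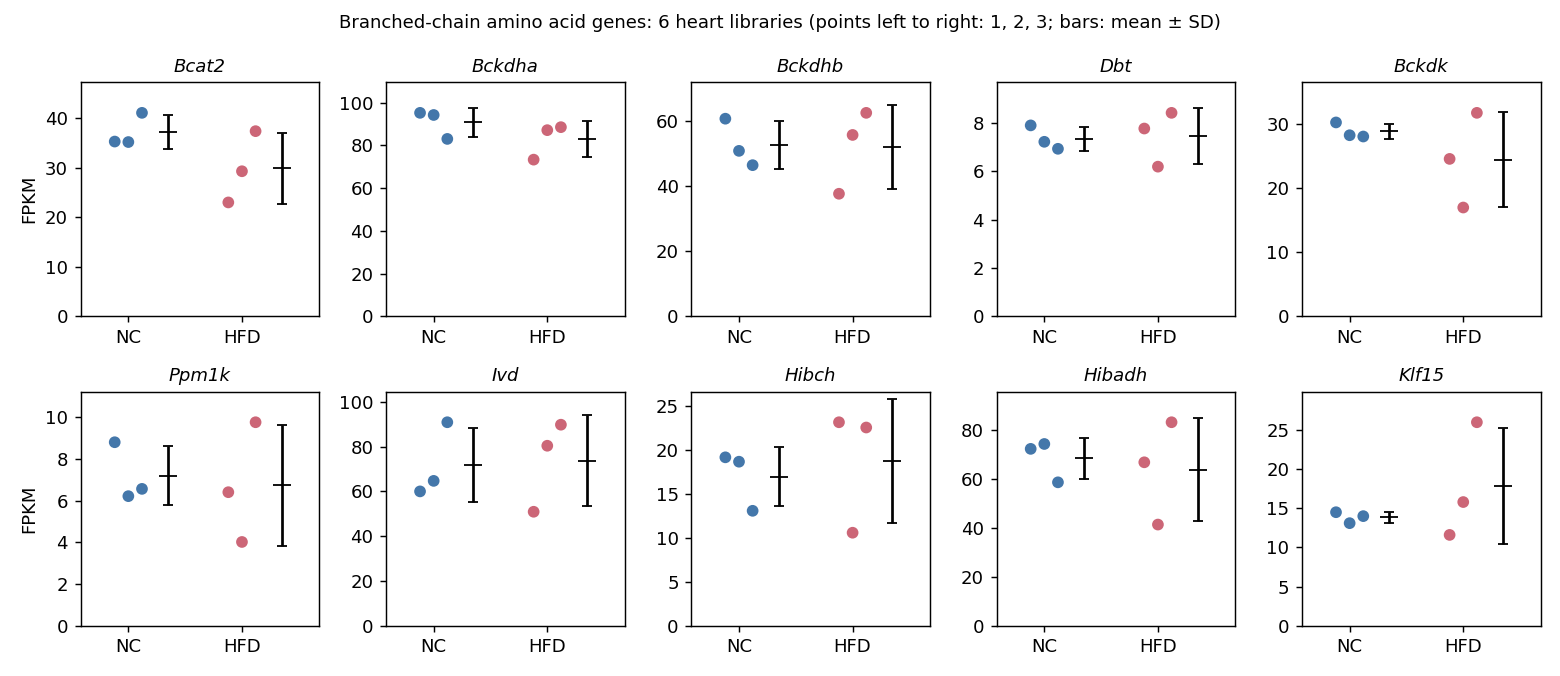
FPKM (vertical axis, from 0) of the 10 genes in the 3 NC libraries (blue) and the 3 HFD libraries (red), with points from left to right for libraries 1, 2 and 3 and bars for the mean ± SD. The diets overlap in every panel, and the HFD points are spread more widely than the NC points, most visibly for Bckdk and Klf15.

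The mitochondrial aminotransferase gene Bcat2 had the largest negative difference of the members. NC 1, NC 2 and NC 3 held 35.3, 35.2 and 41.1 FPKM, and HFD 1, HFD 2 and HFD 3 held 23.0, 29.3 and 37.4 FPKM. Both HFD 1 and HFD 2 lay below all NC libraries, while HFD 3 lay within their range. Mean FPKM ± SD was 37.2 ± 3.36 for NC and 29.9 ± 7.24 for HFD (n = 3 per diet), with a log2 difference of −0.33 (SE 0.22, 95% interval −0.82 to 0.16, limma unadjusted p = 0.168). The difference was −0.16 without HFD 1 and −0.50 without HFD 3. Bcat1, the cytosolic aminotransferase gene, was far lower than Bcat2, with 0.152 to 0.662 FPKM for NC and 0.18 to 0.778 FPKM for HFD, under the filter of a mean of 1 FPKM.

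Among the subunits of BCKDH the transcript levels per length were unequal. Bckdha, the catalytic E1 alpha subunit, was the most abundant member, with NC values of 95.2, 94.2 and 83.0 FPKM and HFD values of 73.3, 87.1 and 88.5 FPKM. Only HFD 1 lay outside the NC range, below it, and without HFD 1 the difference of Bckdha was −0.05. Bckdhb, the E1 beta subunit, had NC values of 60.8, 50.9 and 46.5 FPKM and HFD values of 37.7, 55.8 and 62.6 FPKM, with the HFD libraries on both sides of the NC range. Dbt, the E2 core, had NC values of 7.91, 7.23 and 6.94 FPKM and HFD values of 7.78, 6.20 and 8.43 FPKM, and was the member with the smallest absolute difference. The log2 differences were −0.13 (SE 0.19) for Bckdha, −0.04 (SE 0.23) for Bckdhb and 0.01 (SE 0.21) for Dbt. The direction for Bckdhb turned with quantile normalization (0.05). Dld, which encodes the E3 subunit shared with the pyruvate and oxoglutarate dehydrogenases, averaged 60.5 ± 11.7 FPKM for NC and 55.8 ± 18.8 FPKM for HFD (SD of n = 3 per diet; log2 difference −0.16, SE 0.27).

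Ratios of genes within a library do not depend on scaling between libraries, and 3 were compared. The ratio of Bckdha to Bckdhb was 1.57, 1.85 and 1.78 on NC and 1.95, 1.56 and 1.41 on HFD. The ratio of Dbt to Bckdhb was 0.13, 0.142 and 0.149 on NC and 0.207, 0.111 and 0.135 on HFD, so HFD 1 held the highest and HFD 2 the lowest value. Mean log2 ratios differed by −0.09 for Bckdha to Bckdhb (exact two-sided permutation p = 0.6) and by 0.06 for Dbt to Bckdhb (exact permutation p = 0.9). The smallest p that 3 against 3 libraries allow is 0.1, and the adjusted p over the 3 ratios was 0.9 for each, so these comparisons could not have passed 0.05. The log2 ratio of Dbt to Bckdhb had an SD of 0.10 on NC and 0.46 on HFD (n = 3 each).

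The kinase and phosphatase of the complex had similar profiles across the libraries. Bckdk, the inhibitory kinase, had NC values of 30.3, 28.3 and 28.1 FPKM and HFD values of 24.6, 17.0 and 31.8 FPKM. Its NC libraries lay within a narrow band, while HFD 1 and HFD 2 lay below and HFD 3 above that band. Ppm1k, the activating phosphatase, had NC values of 8.81, 6.22 and 6.57 FPKM and HFD values of 6.41, 4.02 and 9.77 FPKM, again lowest in HFD 2 and highest in HFD 3. The log2 differences were −0.27 for Bckdk (SE 0.24, 95% interval −0.79 to 0.25) and −0.14 for Ppm1k (SE 0.28, 95% interval −0.76 to 0.48). Without HFD 2 they were −0.04 and 0.14. The ratio of Bckdk to Ppm1k was 3.44, 4.55 and 4.27 on NC and 3.84, 4.23 and 3.26 on HFD, with a difference of −0.11 in mean log2 ratio (exact two-sided permutation p = 0.5, adjusted p = 0.9 over the 3 ratios). The spread of that log2 ratio was alike in both diets, at an SD of 0.21 on NC and 0.19 on HFD (n = 3 each), although each gene alone varied more on HFD.

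Of the enzymes beyond BCKDH, Ivd, the isovaleryl-CoA dehydrogenase of the leucine branch, had NC values of 60.0, 64.7 and 90.9 FPKM and HFD values of 50.9, 80.4 and 89.8 FPKM. HFD 1 was the lowest library, and the other HFD libraries lay within the NC range (log2 difference 0.02, SE 0.26). In the valine branch, Hibch, which encodes the 3-hydroxyisobutyryl-CoA hydrolase, had NC values of 19.2, 18.7 and 13.1 FPKM and HFD values of 23.2, 10.6 and 22.6 FPKM. Hibadh, the next dehydrogenase of that branch, had NC values of 72.4, 74.4 and 58.7 FPKM and HFD values of 66.9, 41.4 and 83.3 FPKM. Both genes were lowest in HFD 2, and for both the other HFD libraries lay within or above the NC range. The log2 difference was 0.08 (SE 0.29) for Hibch and −0.15 (SE 0.26) for Hibadh, and it was 0.43 and 0.13 without HFD 2.

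Klf15 had the largest positive difference of the members, and its sign rested on HFD 3. NC 1, NC 2 and NC 3 held 14.5, 13.1 and 14.0 FPKM, and HFD 1, HFD 2 and HFD 3 held 11.6, 15.8 and 26.0 FPKM. HFD 1 lay below and HFD 2 and HFD 3 above the narrow NC range. Mean FPKM ± SD was 13.8 ± 0.691 for NC and 17.8 ± 7.37 for HFD (n = 3 per diet), with a log2 difference of 0.27 (SE 0.27, 95% interval −0.32 to 0.85, limma unadjusted p = 0.336). Without HFD 3 the difference was −0.03 and without HFD 1 it was 0.52. Bcat2 differed from Klf15 in sign with all libraries, and its highest library was NC 3. Both genes were lowest in HFD 1 (33.0% of all tested genes) and rose from HFD 1 to HFD 3. Without HFD 3 both differences were negative (−0.50 for Bcat2).

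**Figure D2:**
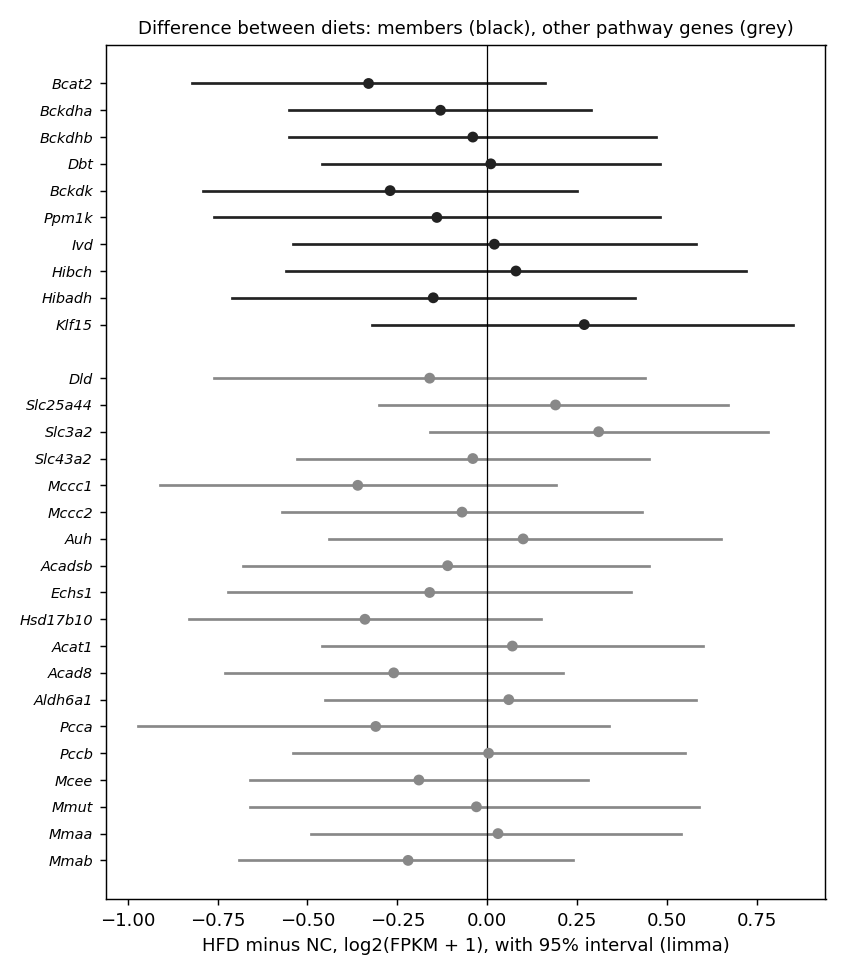
Difference between the diets (HFD minus NC, log2(FPKM + 1), horizontal axis) for the 10 members (black) and 19 of the 20 other tested pathway genes (grey), with 95% intervals from limma. Every interval includes 0, with points from −0.36 for Mccc1 to 0.31 for Slc3a2.

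What the members shared was a wider spread between the HFD libraries. The SD of the log2 level was larger on HFD than on NC in 10 of 10 members, where 63.0% of all tested genes had the larger SD on HFD. The median SD of the members was 0.15 on NC and 0.43 on HFD, against 0.23 and 0.29 over all tested genes, so the members were the steadier on NC and the more variable on HFD. The ratio of the SDs ranged from 1.36 to 8.17 with a median of 2.34 (1.26 over all tested genes). Klf15 went from an SD of 0.07 to 0.55 and Bckdk from 0.06 to 0.44. The count was 7 of 10 without HFD 1 (53.2% of tested genes), 8 of 10 without HFD 2 (52.7%) and 10 of 10 without HFD 3 (50.4%). It was also 10 of 10 without NC 1 (63.5%), without NC 2 (67.7%) and without NC 3 (70.8%). With 3 libraries a diet each SD is itself imprecise, and no test of the spread was made.

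**Figure D3:**
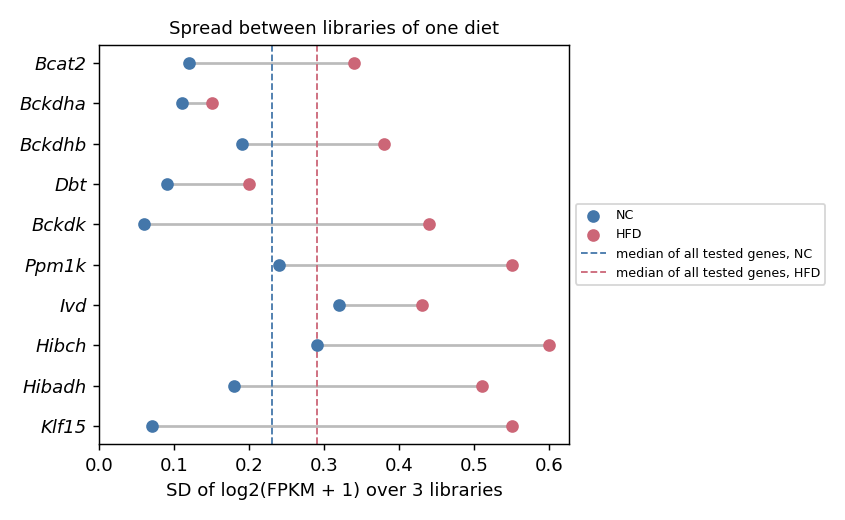
SD of log2(FPKM + 1) over the 3 libraries of a diet (horizontal axis) for each member, NC in blue and HFD in red, with dashed lines for the medians of all tested genes (0.23 and 0.29). The red point lies to the right of the blue point in all 10 rows, with the shortest distance for Bckdha.

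Every member had its lowest value in HFD 1 or HFD 2, the place of the lowest value in 56.1% of all tested genes. In Bcat2, Bckdha, Bckdhb, Ivd and Klf15 it was HFD 1 (33.0% of tested genes), and in Dbt, Bckdk, Ppm1k, Hibch and Hibadh it was HFD 2 (23.1%). HFD 3 held the highest value of 6 members, as it did in 34.5% of tested genes. The median log2 deviation from the NC mean was −0.23 in HFD 1, −0.27 in HFD 2 and 0.27 in HFD 3 for the members, and −0.17, −0.05 and 0.17 for all tested genes. The signs in the 3 HFD libraries were the same for both sets, and the values differed most in HFD 2. Without HFD 3 the difference between the diets was negative in 10 of 10 members (median −0.18), where 33.6% of all tested genes were positive (median −0.11). In that fit 1 member was past an unadjusted p of 0.05 in limma (5.91% of tested genes). Without HFD 2 the difference was negative in 5 of 10 members (median 0.04), where 48.7% of all tested genes were positive (median −7.9e-03). The summed erythroid level was 13343 FPKM in HFD 2, 7410 in HFD 1 and 1238 in HFD 3, and 2021 to 8277 on NC. The summed cardiomyocyte marker level was 24521, 27303 and 26721 FPKM in the HFD libraries 1 to 3, beside 27365 to 36350 on NC, and Myl2 gave the largest part of it. Single markers differed from the sum. Actc1 was at 2692, 1717 and 3620 FPKM in these HFD libraries, Pln at 1014, 612 and 1253 FPKM and Ryr2 at 19.8, 17.1 and 36.4 FPKM, each lowest in HFD 2 and highest in HFD 3 among them, as Bckdk and Ppm1k were. The rest of the listed cardiomyocyte markers had other orders. Among the HFD libraries, Myh6 and Tnnt2 were lowest in HFD 1 and highest in HFD 3, as Bcat2, Bckdha, Bckdhb, Ivd and Klf15 were. Tnni3, Myl2 and Myl3 were highest in HFD 2. The part of these cell types in the members' spread was not tested.

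**Figure D4:**
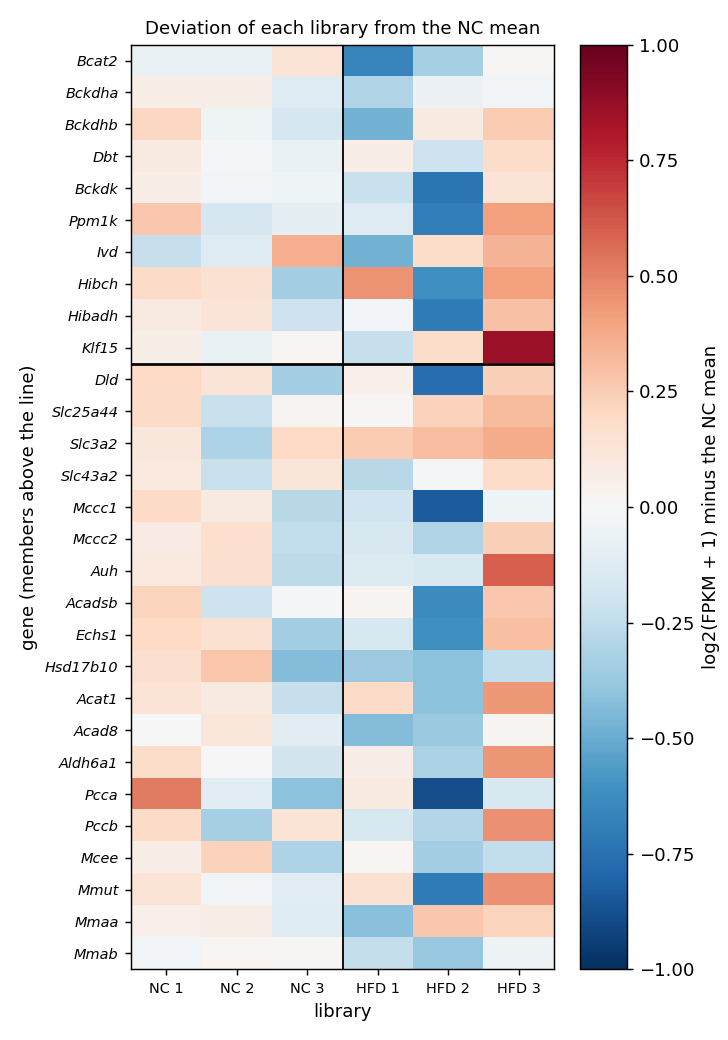
Level of each gene in each library as log2(FPKM + 1) minus the NC mean (colour, red above and blue below), with the 10 members above the line and 19 of the 20 other tested pathway genes under it. HFD 2 is blue in many rows of both blocks, and HFD 3 is red in most, with Klf15 the strongest.

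Across the 6 libraries the profiles of the members could be compared by the root mean square difference of their mean-centred log2 levels, where a small value means a similar course. Bckdk and Hibadh were nearest to each other (0.124), followed by Bckdk and Ppm1k (0.142) and by the E1 subunits Bckdha and Bckdhb (0.157). Ivd and Hibch were farthest apart (0.605). The member nearest to Klf15 was Bckdhb (0.241). Among 10710 other tested genes, those nearest to Klf15 were Noct (0.0454), Pfkl (0.0652), Def8 (0.0708), Tmem63b (0.0740) and Hmcn1 (0.0753). Noct, which encodes nocturnin, had NC values of 5.09, 4.94 and 5.35 FPKM and HFD values of 4.00, 6.12 and 9.85 FPKM. The gene nearest to Bcat2 was H13 (0.0437), to Bckdha Mrps25 (0.0208), to Bckdhb Eif2d (0.0444), to Dbt Ak3 (0.0312) and to Bckdk Pex2 (0.0521). For Ppm1k it was Sgpp1 (0.0401), for Ivd Gprasp1 (0.0424), for Hibch Selenot (0.0424) and for Hibadh Ube2f (0.0342). Each of the 10 members thus had a gene within 0.0521 of it, and these neighbours are given as a description only.

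Another 24 genes of BCAA transport and breakdown were listed, and 20 of them were tested. None passed the test in limma, with 0 of 20 at an adjusted p of 0.05 (0% of all tested genes) and 0 of 20 at an unadjusted p of 0.05 (3.62%). A positive difference was held by 7 and a negative one by 13 (46.9% of all tested genes positive). The median was −0.09, as for the members. The groups did not overlap in 2 of the 20, Slc3a2 and Mmab, near the 8.13% of all tested genes. Their lowest value was in HFD 2 in 11 of 20 genes (23.1% of all tested genes) and their highest in HFD 3 in 13 of 20 (34.5%). The SD was larger on HFD in 16 of 20 (63.0% of all tested genes), in 12 of 20 without HFD 2 (52.7%) and in 10 of 20 without HFD 3 (50.4%). Without HFD 2 the signs turned to 11 positive and 9 negative (48.7% of all tested genes positive). Without HFD 3 they turned to 2 positive and 18 negative (33.6% positive).

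Of the transport genes, Slc3a2, the heavy chain of the large neutral amino acid transporters at the cell surface, had NC values of 16.1, 11.7 and 17.2 FPKM and HFD values of 17.8, 18.7 and 19.5 FPKM. All HFD values lay above all NC values, but the difference of 0.31 (SE 0.22) did not pass (limma adjusted p = 0.9998), and it was 0.16 without NC 2, the lowest library. Its light chain partners Slc7a5 and Slc7a8 were at means of 0.606 and 0.448 FPKM over the 6 libraries, under the filter, as was Slc43a1 (0.824 FPKM). Slc43a2 was at a mean of 1.39 FPKM. Slc25a44, the mitochondrial BCAA carrier, averaged 2.53 ± 0.503 FPKM for NC and 3.01 ± 0.426 FPKM for HFD (SD of n = 3 per diet; log2 difference 0.19, SE 0.22, and 0.08 without NC 2).

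In the leucine branch, Mccc1, the biotin-bearing subunit of methylcrotonyl-CoA carboxylase, had NC values of 19.2, 17.7 and 13.6 FPKM and HFD values of 14.4, 8.94 and 16.2 FPKM. HFD 2 was the lowest library, and the difference of −0.36 (SE 0.25) shrank to −0.12 without it. Its partner subunit Mccc2 had a log2 difference of −0.07 (SE 0.23) and the hydratase gene Auh one of 0.10 (SE 0.25). In the isoleucine branch, Hsd17b10, a mitochondrial hydroxyacyl-CoA dehydrogenase, had NC values of 111, 121 and 73.8 FPKM and HFD values of 77.7, 75.1 and 84.0 FPKM, and had the smallest p of the 20 genes (log2 difference −0.34, SE 0.22, limma unadjusted p = 0.158). Here the HFD libraries were close together and NC 3 was the lowest of all, unlike in the members. Acadsb (−0.11, SE 0.26), Echs1 (−0.16, SE 0.26) and Acat1 (0.07, SE 0.24) gave smaller log2 differences, and the last 2 act in fatty acid or ketone metabolism as well.

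In the valine branch, Acad8, the isobutyryl-CoA dehydrogenase gene, had NC values of 14.7, 16.0 and 13.6 FPKM and HFD values of 10.7, 11.2 and 15.0 FPKM (log2 difference −0.26, SE 0.22). Its lowest libraries were HFD 1 and HFD 2, as for Bcat2. Aldh6a1, the methylmalonate semialdehyde dehydrogenase gene that follows Hibadh, had a difference of 0.06 (SE 0.24). Propionyl-CoA from valine and isoleucine enters the citric acid cycle through propionyl-CoA carboxylase and methylmalonyl-CoA mutase. The carboxylase genes Pcca and Pccb had log2 differences of −0.31 (SE 0.30) and 3.8e-03 (SE 0.25), the epimerase gene Mcee −0.19 (SE 0.22) and the mutase gene Mmut −0.03 (SE 0.29). The value for Pcca was −0.03 without HFD 2, −0.05 without NC 1 and −0.52 without NC 3, and that for Mcee was −0.07 without NC 2. Mmut had NC values of 8.41, 7.32 and 6.90 FPKM and HFD values of 8.43, 4.23 and 10.7 FPKM, with the low HFD 2 and high HFD 3 seen in Ppm1k. Of the cobalamin genes, Mmaa had a difference of 0.03 (SE 0.24) and Mmab, at 4.85 to 5.03 FPKM on NC and 3.58 to 4.75 FPKM on HFD, one of −0.22 (SE 0.21).

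Klf15 was set beside other KLF genes and beside signals known to control it. Of 12 other KLF genes 10 were tested, of which 9 had a positive and 1, Klf2, a negative difference (median 0.25), where 46.9% of all tested genes were positive. None passed the adjusted threshold in limma (0 of 10), and 1 passed an unadjusted p of 0.05 (3.62% of all tested genes). That count was 3 of 10 with quantile normalization (4.98% of tested genes), with median-of-ratios scaling (4.94%) and with the replicate block (5.31%). It was also 3 without NC 1 (2.97%), without HFD 1 (3.67%) and without HFD 2 (4.42%). With a pseudocount of 0.1 (3.59%), without a trend (3.58%) and with robust moderation (3.76%) it was 2. The gene that passed at an unadjusted p was Klf3, a transcriptional repressor, with NC values of 5.47, 5.49 and 5.12 FPKM and HFD values of 8.92, 8.95 and 11 FPKM. All HFD values of Klf3 lay above all NC values (log2 difference 0.74, SE 0.21, limma adjusted p = 0.942). Klf13 had a difference of 0.55 (SE 0.26, and 0.33 without HFD 3), Klf9 one of 0.59 (SE 0.28, and 0.39 without HFD 3), and Klf5 was listed at 0 in all libraries. The 9 to 1 split was the same under each scaling of the libraries that was tried (46.3% to 51.6% of tested genes positive). It was 10 to 0 without HFD 1 (58.7% of tested genes positive) and 8 to 2 without HFD 2 (48.7%).

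All of 10 glucocorticoid target genes had a positive difference (46.9% of all tested genes), with a median of 0.54. The count was 9 of 10 with library weights (40.4% of tested genes positive), without HFD 2 (48.7%) or without NC 2 (38%). The median was 0.29 without NC 2. In limma 0 passed the adjusted threshold and 3 an unadjusted p of 0.05 (3.62% of all tested genes), which became 6 without NC 3 (3.03%) and 6 with the replicate block (5.31%). The 3 genes of the main fit were Zbtb16 (log2 difference 1.5, SE 0.28), Fkbp5 (1.0, SE 0.25) and Sgk1 (0.89, SE 0.27), whose diets did not overlap (3 of 10, and 8.13% of all tested genes). Zbtb16 and Fkbp5 averaged only 3.14 and 3.67 FPKM over the 6 libraries. Under a filter at a mean of 5 FPKM both fell out, and 1 of 8 tested targets passed the unadjusted p (3.64% of tested genes). Zbtb16 and Fkbp5 were known from earlier results on these data and are no independent evidence. Klf15 shared with Fkbp5 and Zbtb16 its highest value in HFD 3 (34.5% of all tested genes). Sgk1 and most of the listed targets were highest in another library. The lowest value was in HFD 1 for Klf15 and in an NC library for Fkbp5, Zbtb16 and Sgk1. The glucocorticoid receptor gene Nr3c1 had a difference of 0.27 (SE 0.26), which was 0.07 without NC 3. Of the clock activators, Clock had a difference of −0.25 (SE 0.25), which was −0.04 without NC 1, and Bmal1 was under the filter, with NC values of 2.65, 0.907 and 0.879 FPKM and HFD values of 0.112, 0.35 and 0.161 FPKM. All HFD values of Bmal1 lay below all NC values, and in a fit without a filter its log2 difference was −0.97 (SE 0.28, limma unadjusted p = 0.0115, adjusted p = 0.9836). Bmal1 was singled out after its values were seen.

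Of 6 genes known from muscle or liver as KLF15 targets, 3 had a positive and 3 a negative difference (median −3.3e-03). At an unadjusted p of 0.05 in limma, 0 of the 6 passed (3.62% of all tested genes). The latter count depended on the setting. It was 3 with quantile normalization (4.98% of tested genes) and with median-of-ratios scaling (4.94%), and 2 without HFD 3 (5.91%). It was 1 with no filter (3.44%), with the replicate block (5.31%), without NC 3 (3.03%), without HFD 1 (3.67%) and without HFD 2 (4.42%). The split was 4 positive to 2 negative with quantile normalization, and the median was −0.23 without HFD 3 and 0.19 without HFD 1. The proline dehydrogenase gene Prodh had NC values of 6.67, 5.17 and 9.12 FPKM and HFD values of 7.49, 13.8 and 11.3 FPKM (log2 difference 0.56, SE 0.27). The alanine aminotransferase gene Gpt had NC values of 9.31, 10.9 and 12.5 FPKM and HFD values of 5.67, 7.65 and 9.70 FPKM (log2 difference −0.47, SE 0.24, and −0.30 without HFD 1). Like Bcat2, the aminotransferase Gpt was lowest in HFD 1 and highest in NC 3. The ubiquitin ligase gene Fbxo32 had NC values of 6.07, 6.67 and 5.53 FPKM and HFD values of 8.26, 7.49 and 11.3 FPKM (log2 difference 0.49, SE 0.23), with no overlap of the diets. Among 4 other tested regulators, Ppargc1a, a coactivator of mitochondrial genes, had a difference of 0.34 (SE 0.27), which was 0.05 without HFD 3, the library that was also highest for Klf15.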

How the data were processed

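mRNA of 6 heart libraries (3 NC, 3 HFD) was measured. Per the labels' protocols, RNA was isolated by the Trizol method and a VAHTS mRNA-seq kit was used. The values are FPKM deposited by the authors, with no statement of the program that made them. The submitters' processing notes list these tools without their roles: HISAT2 2.2.1, Trimmomatic 0.38, FastQC 0.11.9, DESeq2 1.18.1, HTSeq 0.13.5 and R 3.4.1. They give mm10 as the build.

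FPKM are not counts, and no steps worth single reads could be recovered, so the depth is unknown and no count test was run. Levels were taken as log2(FPKM + 1), which understates changes of low genes. Genes averaging 1 FPKM or more (11456, all 10 members among them) were tested without covariates by limma 3.58.1 in R 4.3.3 (moderated with a trend, two-sided). P-values were adjusted by Benjamini-Hochberg over all tested genes, with a threshold of 0.05. The fit was tested on simulated data. Mmut and Bmal1 were matched through RefSeq synonyms. Promoters are RefSeq's on GRCm38.p6, the assembly of mm10.

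The members and lists were chosen with earlier results of these data known. Named were all members, the other pathway genes (1 is not reported here by name), the 3 genes with the smallest p of each regulator list and the nearest profiles, without predicted gene models. Alternatives were other pseudocounts (0.1, 0.5), no filter or a mean of 5 FPKM, 3 scalings, moderation without a trend or robust, library weights, a replicate block and leaving out each library. The spread with libraries left out was added after seeing the data.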

Additional observations from a re-analysis of the deposited data

How the results depend on the processing

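No member and none of the 20 other pathway genes passed an adjusted p of 0.05 under any alternative that was run. The number of tested genes past that threshold was 0 in each alternative except 1 without NC 2 and 73 with a replicate block, and it ranged from 0 to 1 when a library was left out. The deviations of same-numbered libraries from their diet means correlated at 0.193, 0.0864 and 0.275 across genes. Pairs of unlike number gave 0.251 (NC 2 with HFD 1), 0.0927, 0.0684, −0.246, −0.357 and −0.361. These values do not settle whether the numbers mark a pairing. The main fit used none. With the block Zbtb16 (adjusted p = 1.28e-05) and Fkbp5 (adjusted p = 0.0402, limma) passed. Quantile normalization turned Bckdhb to 0.05, and library weights turned Dbt to −3.6e-03, Pccb to −0.05 and Mmaa to −0.06. Equal sums turned Pccb to −2.7e-04. These sums left out mitochondrially encoded genes and genes listed at 0 in a library and above 1000 FPKM in another. The cause of these turns was not tested. Leaving out a library turned the sign in these genes, given with their lowest and highest log2 difference: Bckdhb (−0.19 to 0.17), Dbt (−0.07 to 0.12), Ppm1k (−0.41 to 0.14), Ivd (−0.14 to 0.26), Hibch (−0.10 to 0.43), Hibadh (−0.37 to 0.13), Klf15 (−0.03 to 0.52), Dld (−0.36 to 0.15), Slc43a2 (−0.15 to 0.08), Mccc2 (−0.23 to 0.04), Auh (−0.15 to 0.23), Acadsb (−0.31 to 0.15), Echs1 (−0.38 to 0.07), Acat1 (−0.11 to 0.31), Aldh6a1 (−0.12 to 0.25), Pccb (−0.22 to 0.15), Mmut (−0.28 to 0.30) and Mmaa (−0.10 to 0.25). The log2 ratios then ranged from −0.22 to 0.01 for Bckdha to Bckdhb, from −0.20 to 0.25 for Dbt to Bckdhb and from −0.23 to −9.4e-03 for Bckdk to Ppm1k, which kept its sign. Hsd17b10 (−0.55 to −0.20), Acad8 (−0.40 to −0.17) and Mmab (−0.31 to −0.14) moved by over 1.5 times with the same sign. So did the members Bcat2 (−0.50 to −0.16), Bckdha (−0.19 to −0.05) and Bckdk (−0.48 to −0.04). The same held for Mccc1 (−0.51 to −0.12), Pcca (−0.52 to −0.03), Mcee (−0.34 to −0.07), Slc3a2 (0.16 to 0.41) and Slc25a44 (0.08 to 0.28). The unknown depth leaves no counting error to be given for low genes such as Bcat1.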
